A study of Mus musculus with 8 samples.

Results

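Integrin subunits were followed in Lewis lung carcinoma (LLC) cells with and without FIH, at 2 oxygen tensions. The members are 10 genes named by symbol, Itga2, Itga3, Itga5, Itga6, Itgav, Itgb1, Itgb3, Itgb4, Itgb5 and Itgb7, out of 53700 genes in the count table. LLC is an established mouse lung carcinoma line. FIH, the product of Hif1an, is an asparaginyl hydroxylase that restrains the transcriptional activity of the hypoxia-inducible factors. RNA came from WT and FIH-deficient (FIH-KO) cells kept for 16 hours in normoxia (21% O2) or in hypoxia (1% O2), and was sequenced as 2 libraries in each of the 4 groups. The knockout was made with a CRISPR/Cas9 guide against exon 2 of Hif1an followed by single-cell dilution, so a genotype difference cannot be told apart from a difference between clones.

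Integrins are receptors made of 1 α and 1 β chain that span the plasma membrane and tie the extracellular matrix to the actin cytoskeleton. The pairing sets the ligand. The β1 chain pairs with many α chains to form receptors for collagen (α2), laminin (α3, α6) and fibronectin (α5), the αv chain joins β1, β3, β5, β6 or β8 to form receptors for vitronectin, fibronectin or latent TGF-β, the α6β4 receptor anchors epithelial cells through hemidesmosomes, and β7 pairs with α4 or αE on lymphocytes. In carcinoma cells these receptors govern attachment, spreading, migration and survival.

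The 8 libraries held between 14519731 and 18177016 counted reads, and 13933 genes passed the low-count filter and were tested. The pair of libraries in each group was further apart than counting error allows (chi-square per degree of freedom between 5.92 and 24.5), and the labels do not say whether they came from separate cultures, so the p values measure only the spread between these libraries. Hif1an was at 584 to 784 reads in each FIH-KO library and at 1231 to 1609 in each WT library, and differed by -1.20 on the log2 scale between the genotypes at 21% O2 (adjusted p = 3.1e-05 by edgeR, standard error 0.12). An edited gene can still be transcribed, so these reads check the labels and not the loss of the protein. Of the epithelial markers of the labelled cell type, Krt8 and Krt18 were present, while Epcam and Cldn4 had 0 reads in every library and Cdh1 at most 1. Krt19 had 11 to 235 reads, with means of 0.840 and 0.803 CPM in WT and FIH-KO normoxia and 7.68 and 10.9 in hypoxia. Of the lung epithelial markers, Nkx2-1 and Sftpc had 0 reads, Sftpb at most 2, Scgb1a1 at most 1 and Ager 13 to 37. Vim was at 46720 reads or more in each library. Summed mesenchymal markers (Vim, Cdh2, S100a4 and Fn1) ran from 4395 to 5151 CPM (counts scaled by library total and TMM factor) in WT normoxia, 5541 to 5990 in WT hypoxia, 8249 to 9043 in FIH-KO normoxia and 9179 to 11025 in FIH-KO hypoxia. Vim and Fn1 made up most of this sum in every group, while Cdh2 group means lay between 23.1 and 28.0 CPM. S100a4 means were 44.7 and 22.9 CPM in WT normoxia and hypoxia, and 60.5 and 27.6 in FIH-KO cells. The 6 epithelial markers summed to 326 to 352 CPM in WT normoxia and 226 to 283 in WT hypoxia. In FIH-KO cells they summed to 436 to 538 CPM in normoxia and 334 to 447 in hypoxia. In bulk RNA, fewer cells of a type and less RNA per cell cannot be told apart.

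The promoters of 3 members are shown because Itga2 and Itgb5 carried the largest changes among the members and Itga5 rose in hypoxia. They are the 250 bases before the start site in RefSeq, located in GRCm39 by exact match and written 5′ to 3′ on the strand of the gene, with the core of the hypoxia response element in capitals. The core was searched as ACGTG or GCGTG on both strands.
Itga2, chr13:115068637-115068886, minus strand: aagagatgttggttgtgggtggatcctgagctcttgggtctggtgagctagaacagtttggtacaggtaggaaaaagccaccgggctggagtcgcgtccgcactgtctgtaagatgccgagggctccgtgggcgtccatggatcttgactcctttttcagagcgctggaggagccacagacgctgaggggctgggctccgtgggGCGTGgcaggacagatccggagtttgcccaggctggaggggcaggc
Itgb5, chr16:33649785-33650034, plus strand: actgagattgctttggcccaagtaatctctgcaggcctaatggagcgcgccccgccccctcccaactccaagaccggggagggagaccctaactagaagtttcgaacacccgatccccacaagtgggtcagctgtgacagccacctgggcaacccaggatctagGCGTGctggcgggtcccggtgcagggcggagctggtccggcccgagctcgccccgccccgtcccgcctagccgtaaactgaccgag
Itga5, chr15:103275219-103275468, minus strand: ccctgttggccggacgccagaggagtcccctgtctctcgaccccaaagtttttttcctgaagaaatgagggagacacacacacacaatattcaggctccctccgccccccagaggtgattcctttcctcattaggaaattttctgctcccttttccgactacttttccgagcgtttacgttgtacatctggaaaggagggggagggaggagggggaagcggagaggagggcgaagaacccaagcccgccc
The Itga2 window held 1 GCGTG that begins 46 bases before the start site, and the Itgb5 window held 1 GCGTG that begins 86 bases before it. The windows of Itga3, Itga5, Itgav, Itgb1 and Itgb7 held neither core, so 2 of the 7 members with a RefSeq entry had one. Of all 32851 mouse promoters of this length, 38.6% held at least 1 of the cores, 16.6% ACGTG and 28.2% GCGTG. A match is a description of the letters and not a binding site. Itga6, Itgb3 and Itgb4 had no entry.

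Compared per length, as CPM per kb of merged exons, β chains topped the list and the members spanned a wide range. In WT normoxia Itgb7 (mean 130 ± 11.9, SD, n = 2) and Itgb1 (107 ± 0.413, SD, n = 2) led. The α chains followed, with Itga3 at 27.8, Itga6 at 25.2, Itga5 at 22.5 and Itgav at 15.4 CPM per kb. Itgb5 was at 7.62, and Itgb4 at 0.554, Itgb3 at 0.273 and Itga2 at 0.0132 CPM per kb closed the order. Neighbours in this order did not overlap between libraries, except Itga3 and Itga6. In WT hypoxia and in FIH-KO normoxia Itgb1 and Itgb7 overlapped each other at the top. Itgb5 moved up from 7.62 CPM per kb in WT normoxia to 10.2 in WT hypoxia, 23.3 in FIH-KO normoxia and 23.8 in FIH-KO hypoxia, where it overlapped Itga6 and Itgav. The plot of levels per exon length shows this order together with the other integrin subunits.

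**Figure D1:**
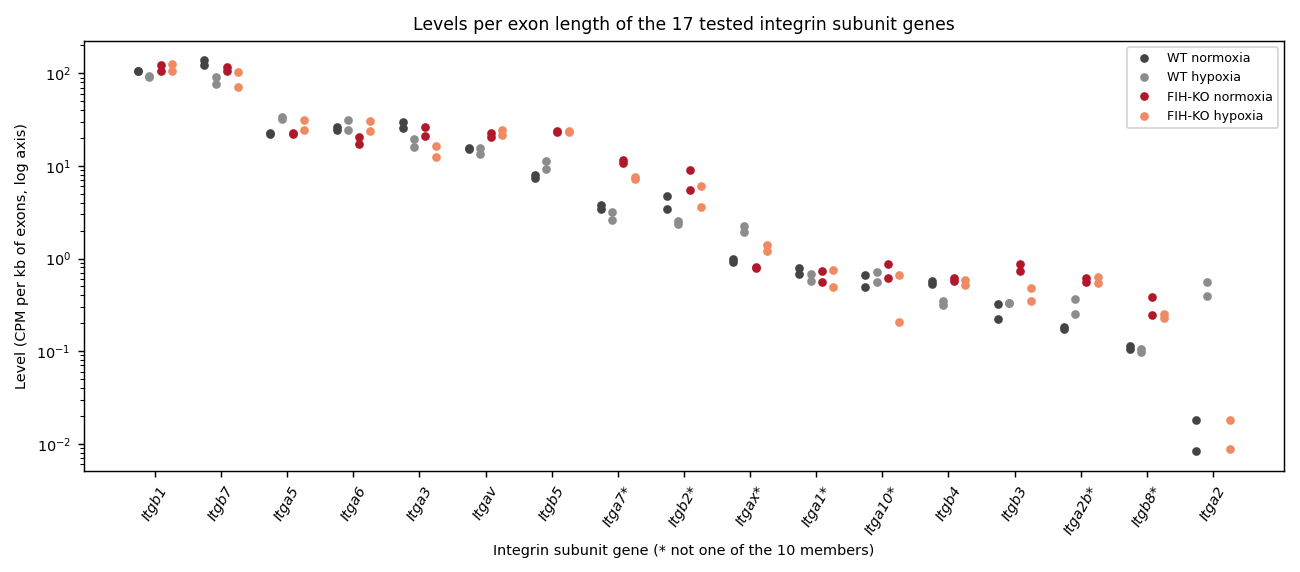
Level of each of the 17 tested integrin subunit genes in CPM per kb of merged exons (log axis), 1 point per library, coloured by group; genes are ordered by their mean and those marked with a star are not among the 10 members. Itgb1 and Itgb7 stand at the top in every group, Itgb5 is higher in all 4 FIH-KO libraries than in the WT libraries, and Itga2 has points at a level comparable to Itgb4 in WT hypoxia alone (the 2 FIH-KO normoxia libraries hold 0 reads and have no point).

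Loss of FIH was accompanied by more transcript of αv and of its partner β5 in both oxygen conditions, and of β3 in normoxia. In normoxia 3 of the 10 members rose in FIH-KO cells and 0 fell, against 15.2% and 13% of all tested genes (28.2% in either direction). In hypoxia 2 rose and 1, Itga2, fell, against 14.1% and 13.9% (28% in either direction). With so few members these shares are counts and no result about the list. Itga2 passed the low-count filter through WT hypoxia only, and without it the counts were 3 and 0 of 9 in normoxia and 2 and 0 of 9 in hypoxia. The median log2 fold change of the members was 0.05 in normoxia (0.10 without Itga2) and 0.20 in hypoxia (0.32 without Itga2), beside medians of -0.0025 and -0.03 over all tested genes.

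Itgb5 encodes the β5 chain, which with αv forms a vitronectin receptor found at clathrin-rich adhesions. It lies on the plus strand of chromosome 16 (GRCm39, 33649988 to 33771137; ENSMUSG00000022817.16). Its level was 51.7 and 55.9 CPM in the WT normoxia libraries, 78.9 and 64.7 in WT hypoxia, 162 and 167 in FIH-KO normoxia and 170.1 and 166 in FIH-KO hypoxia. Every FIH-KO library was above every WT library, with no overlap at either oxygen tension. FIH-KO over WT cells gave 1.61 on the log2 scale in normoxia (3.06-fold, standard error 0.12, adjusted p = 4.5e-06 by edgeR) and 1.22 at 1% O2 (2.34-fold, standard error 0.12, adjusted p = 2.8e-05 by edgeR). It was also higher in hypoxia than in normoxia in WT cells (log2 fold change 0.42, standard error 0.12, adjusted p = 0.018, edgeR). That call was lost without WT hypoxia replicate 1 (0.23, adjusted p = 0.26), WT normoxia replicate 1 (0.32, adjusted p = 0.20) or WT normoxia replicate 2 (0.43, adjusted p = 0.097). In FIH-KO cells the libraries of both oxygen conditions lay within 162 to 170.1 CPM, and the log2 difference between them was 0.03 (95% interval -0.22 to 0.28).

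Itgav encodes αv, the chain shared by the vitronectin and TGF-β binding integrins (chromosome 2, plus strand, 83554403 to 83637260; ENSMUSG00000027087.12). It was at 187 and 192 CPM in WT normoxia, 164 and 193 in WT hypoxia, 251 and 276 in FIH-KO normoxia and 263 and 299 in FIH-KO hypoxia. All 4 FIH-KO libraries stood above all 4 WT libraries. Log2 fold changes of FIH-KO over WT were 0.47 ± 0.12 (standard error) in normoxia, with an adjusted p of 0.011 by edgeR, and 0.65 ± 0.12 in hypoxia, with an adjusted p of 0.0019. The normoxia call was lost without FIH-KO normoxia replicate 2 (adjusted p = 0.082), WT normoxia replicate 1 (0.13) or WT normoxia replicate 2 (0.086). Oxygen gave differences within the replicate spread (log2 fold change -0.09 in WT and 0.09 in FIH-KO cells, neither called).

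Itgb3 encodes β3, the other classical partner of αv and, with αIIb, the platelet fibrinogen receptor (chromosome 11, plus strand, 104498826 to 104561302; ENSMUSG00000020689.5). It rested on few reads, with 23 and 36 in WT normoxia, 39 and 32 in WT hypoxia, 81 and 104 in FIH-KO normoxia and 37 and 49 in FIH-KO hypoxia. In CPM these were 1.48 and 2.13, 2.19 and 2.18, 4.82 and 5.82, and 2.31 and 3.19. FIH-KO normoxia stood above the other 3 groups, which lay close together. FIH-KO over WT cells gave a log2 fold change of 1.55 ± 0.31 (standard error) in normoxia, with an adjusted p of 0.0031 by edgeR, and of 0.33 ± 0.32 in hypoxia, with an adjusted p of 0.48. The normoxia call was lost without WT normoxia replicate 1 (1.29, adjusted p = 0.055). In FIH-KO cells hypoxia over normoxia gave -0.95 ± 0.29 (adjusted p = 0.044 by edgeR), a call lost without FIH-KO hypoxia replicate 1, FIH-KO normoxia replicate 1 or FIH-KO normoxia replicate 2 (adjusted p = 0.21, 0.096 and 0.21) and with DESeq2 (0.097). Of the 6 platelet and endothelial markers, Pf4 and Gp9 had 0 reads in every library, Kdr had at most 3, and Itga2b, Cdh5 and Pecam1 reached 84, 35 and 8 reads. The summed level of the 6 markers was 1.74 to 1.78 CPM in WT normoxia, 4.48 to 4.78 in WT hypoxia, 4.76 to 5.18 in FIH-KO normoxia and 4.82 to 5.62 in FIH-KO hypoxia. Itga2b, itself an integrin subunit, made up most of it, with means of 1.45, 2.54, 4.77 and 4.84 CPM in the same order. Cdh5 and Pecam1 were highest in WT hypoxia (means 1.60 and 0.413 CPM). The part of these markers in the Itgb3 values was not tested.

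Because αv needs a β partner, the β chains known to join it were compared with each other per exon length. Itgb5 made up 6.65 ± 0.362% of their summed level in WT normoxia and 9.86 ± 1.44% in WT hypoxia (SD, n = 2 each). In FIH-KO cells its share was 16.9 ± 1.27% at 21% O2 and 17.02 ± 1.89% under 1% O2 (SD, n = 2 each). Itgb1 made up the bulk of the rest, from 93.0% in WT normoxia to 82.3% in FIH-KO normoxia. Itgb3 stayed at or under 0.580% and Itgb8 at or under 0.233% in the group means, and Itgb6 had at most 1 read in a library. Transcript shares say nothing of how the chains paired at the membrane.

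Itga2 encodes α2, the collagen-binding partner of β1 (chromosome 13, minus strand, 114969617 to 115068636; ENSMUSG00000015533.10). It was nearly silent in 3 of the 4 groups. WT hypoxia held 50 and 58 reads, WT normoxia 2 and 1, FIH-KO hypoxia 1 and 2 and FIH-KO normoxia 0 and 0. The WT hypoxia libraries (2.80 and 3.96 CPM) therefore stood far above all the others. Summed over the 2 libraries, the level in WT hypoxia was 35.9 times that in WT normoxia (95% counting interval 11.98 to 177, on 108 against 3 reads) and 34.8 times that in FIH-KO hypoxia (11.6 to 171, on 108 against 3 reads). Against FIH-KO normoxia, with 0 reads, it was at least 19.5-fold higher, taking 3 counts per library as the floor. The intervals and the floor cover counting error only. Since Itga2 was tested only because it was high in WT hypoxia, its calls in the comparisons with that group are part of how it was kept and support nothing. Its reads are given as a description. No fold is given between FIH-KO and WT cells in normoxia or between oxygen conditions in FIH-KO cells, where both groups were at or under the floor. For the same reason the difference in the genotype effect between oxygen conditions was not estimable on the log scale (-1.32, standard error 2.94). The exons of Mocs2, on the opposite strand, overlap 6.22% of the Itga2 exon length, and the strand setting of the counting is not given in the sources used here. Mocs2 itself passed no test (log2 fold change -0.29, adjusted p = 0.18 for hypoxia over normoxia in WT cells, edgeR). Its neighbour Itga1, which encodes the other collagen-binding α chain of this locus, was at 214 to 283 reads in WT libraries and was not called in either genotype by oxygen (log2 fold change -0.23 in WT and -0.07 in FIH-KO cells).

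**Figure D2:**
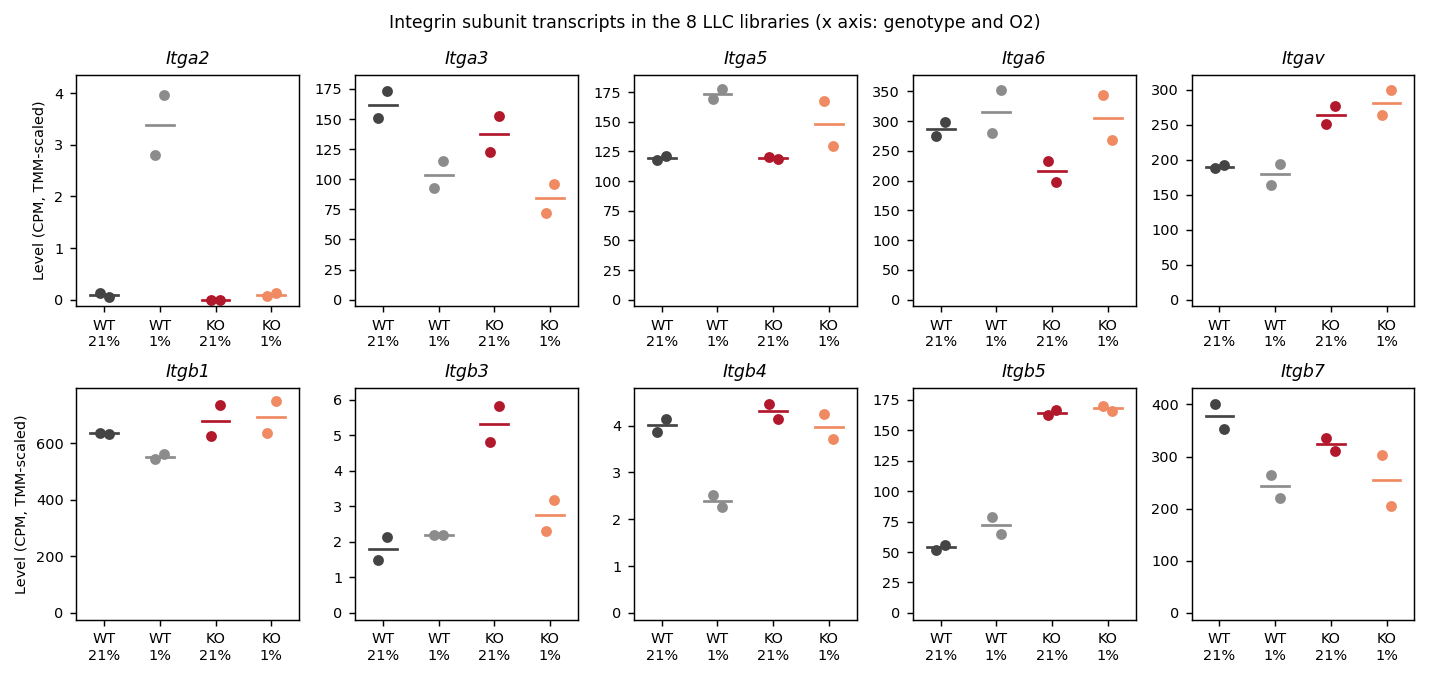
Level of the 10 integrin subunit genes in each library (TMM-scaled CPM, linear axes from 0, 1 panel per gene); points are the 2 libraries of a group, lines their mean, and the x axis gives genotype (WT, KO for FIH-KO) and O2. Itga2 is raised in WT hypoxia alone, Itgb5 and Itgav are higher in all FIH-KO libraries, Itgb3 is highest in FIH-KO normoxia, and Itga3 is lower at 1% O2 in both genotypes.

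Hypoxia went with more Itga5 and Itgb5 transcript and less Itga3 and Itgb7 in WT cells, and with less Itga3 in FIH-KO cells too. In WT cells 3 of the 10 members were higher in hypoxia (Itga2, Itga5 and Itgb5) and 2 lower (Itga3 and Itgb7), against 16.9% and 15.5% of all tested genes (32.4% in either direction). In FIH-KO cells 1 was higher (Itga6) and 2 lower (Itga3 and Itgb3), against 8.84% and 8% (16.8% in either direction). Without Itga2 the counts were 2 and 2 of 9 in WT cells and 1 and 2 of 9 in FIH-KO cells. The median log2 fold change of the members was 0.03 in both genotypes (-0.09 and 0.02 without Itga2), beside -0.0011 and -0.03 over all tested genes. These comparisons share their groups with the genotype comparisons, so the values are not independent of them.

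Itga3 encodes α3, which with β1 binds laminin (chromosome 11, minus strand, 94935296 to 94967682; ENSMUSG00000001507.17). It was at 151 and 173 CPM in WT normoxia and 92.3 and 115 in WT hypoxia, and at 123 and 153 in FIH-KO normoxia and 72.2 and 96.3 in FIH-KO hypoxia. In each genotype both hypoxia libraries were below both normoxia libraries. Hypoxia over normoxia gave -0.64 on the log2 scale in WT cells (standard error 0.16, adjusted p = 0.010, edgeR) and -0.71 in FIH-KO cells (standard error 0.16, adjusted p = 0.012, edgeR). The WT call was lost without WT hypoxia replicate 1 (-0.53, adjusted p = 0.092) or WT normoxia replicate 2 (-0.58, adjusted p = 0.081), and the FIH-KO call without FIH-KO hypoxia replicate 1 (-0.49, adjusted p = 0.091) or FIH-KO normoxia replicate 2 (-0.52, adjusted p = 0.11). Between FIH-KO and WT cells the log2 fold change was -0.23 in normoxia and -0.30 in hypoxia, neither called. Without FIH-KO hypoxia replicate 2 the value in hypoxia was -0.52 (adjusted p = 0.049, edgeR).

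Itga5 encodes α5, which with β1 is the main fibronectin receptor (chromosome 15, minus strand, 103252713 to 103275270; ENSMUSG00000000555.9). It was at 118 and 121 CPM in WT normoxia, 169 and 178 in WT hypoxia, 119.98 and 118 in FIH-KO normoxia and 168 and 129.6 in FIH-KO hypoxia. The normoxia libraries of both genotypes sat together, and all hypoxia libraries were above them. The log2 fold change of hypoxia over normoxia was 0.54 in WT cells (standard error 0.12, adjusted p = 0.0065, edgeR) and 0.32 in FIH-KO cells (standard error 0.12, adjusted p = 0.10, edgeR). The WT call was lost without WT normoxia replicate 1 (0.47, adjusted p = 0.079) or replicate 2 (0.52, adjusted p = 0.063). The FIH-KO hypoxia libraries lay apart from each other. Without FIH-KO hypoxia replicate 2 the value in FIH-KO cells was 0.49 (adjusted p = 0.011), and without FIH-KO hypoxia replicate 1 the genotype comparison in hypoxia gave -0.38 (adjusted p = 0.032), against -0.22 and no call with both.

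Itga6 encodes α6, the laminin-binding partner of β1 and β4 (chromosome 2, plus strand, 71575960 to 71689757; ENSMUSG00000027111.17). It was at 276 and 298 CPM in WT normoxia, 279.8 and 353 in WT hypoxia, 234 and 197 in FIH-KO normoxia and 344 and 268 in FIH-KO hypoxia. FIH-KO normoxia was the lowest group, with both libraries below all others. Hypoxia over normoxia gave a log2 fold change of 0.51 in FIH-KO cells (standard error 0.15, adjusted p = 0.038, edgeR) and 0.14 in WT cells (standard error 0.15, not called). The FIH-KO call was lost without FIH-KO hypoxia replicate 1 (0.34, adjusted p = 0.18), FIH-KO normoxia replicate 1 (0.65, 0.055) or FIH-KO normoxia replicate 2 (0.41, 0.18), and with only the 4 FIH-KO libraries in the fit (0.53, 0.069). FIH-KO against WT cells in normoxia gave -0.41 (standard error 0.15, adjusted p = 0.059, edgeR), which passed the threshold with DESeq2 (adjusted p = 0.042).

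Itgb7 encodes β7, the leukocyte chain that pairs with α4 and αE (chromosome 15, minus strand, 102124429 to 102140379; ENSMUSG00000001281.11). It was at 401 and 353 CPM in WT normoxia, 265 and 220.4 in WT hypoxia, 336 and 311 in FIH-KO normoxia and 304 and 206 in FIH-KO hypoxia. Hypoxia libraries were below normoxia libraries in both genotypes. The log2 fold change of hypoxia over normoxia was -0.63 in WT cells (standard error 0.17, adjusted p = 0.012, edgeR) and -0.34 in FIH-KO cells (standard error 0.17, adjusted p = 0.18, edgeR). The WT call was lost without WT hypoxia replicate 2 (-0.51, adjusted p = 0.11) or WT normoxia replicate 1 (-0.58, adjusted p = 0.074), while the FIH-KO value without FIH-KO hypoxia replicate 1 was -0.62 (adjusted p = 0.017). Neither known α partner was measured at more than a trace. Itga4 had 0 reads in all 8 libraries, which allows up to 3 reads per library or 0.165 to 0.207 CPM, and Itgae had 1 to 8 reads. Of the 7 leukocyte markers, Cd3e had 0 reads, Ptprc 0 to 3 and Itgam 0 to 1, Cd79a reached 9, Csf1r 53 and Lyz2 107, and Cd68 had 41 to 115. Their summed level was lowest in WT normoxia (3.08 to 4.09 CPM), where Itgb7 was highest, and their part in the Itgb7 values was not tested.

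Itgb1 encodes β1, the common partner of the α chains above (chromosome 8, plus strand, 129411876 to 129460618; ENSMUSG00000025809.16). It was at 638 and 635 CPM in WT normoxia, 544 and 562 in WT hypoxia, 627 and 734 in FIH-KO normoxia and 636 and 749 in FIH-KO hypoxia. Its group means spanned 1.25-fold and no comparison called it in the main edgeR fit. FIH-KO over WT cells in hypoxia came nearest, at 0.32 ± 0.12 on the log2 scale (adjusted p = 0.070 by edgeR), and reached 0.48 (adjusted p = 0.015) without FIH-KO hypoxia replicate 1. The same comparison was called by DESeq2 (0.35, adjusted p = 0.030) and by edgeR with no filter (0.36, adjusted p = 0.017). Among its α partners in the list, compared per exon length, Itga3 went from 30.5 ± 1.35% of their sum in WT normoxia to 19.1 ± 0.865% in WT hypoxia (SD, n = 2 each). Itga5 went from 24.8 ± 0.809% to 35.2 ± 2.64% in the same cells (SD, n = 2 each). In FIH-KO cells Itga3 went from 27.3 ± 3.40% to 15.8 ± 3.997% and Itga5 from 26.0 ± 1.04% to 30.2 ± 3.93% (SD, n = 2 each), so that Itga5 was the larger of the pair in hypoxia in both genotypes.

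Itgb4 encodes β4, the partner of α6 in hemidesmosomes (chromosome 11, plus strand, 115865333 to 115899239; ENSMUSG00000020758.16). It had 60 and 70 reads in WT normoxia, 45 and 33 in WT hypoxia, 75 and 74 in FIH-KO normoxia and 68 and 57 in FIH-KO hypoxia. WT hypoxia was the lowest group without overlap. The log2 fold change of hypoxia over normoxia in WT cells was -0.74 (standard error 0.27, adjusted p = 0.0505, edgeR) and that of FIH-KO over WT cells in hypoxia was 0.73 (standard error 0.27, adjusted p = 0.059, edgeR), both short of the threshold. Both comparisons use the WT hypoxia libraries. Galk1, on the opposite strand, overlaps 14.9% of the Itgb4 exon length at a mean of 1717 reads per library, and passed no test (log2 fold change -0.16 and -0.01 in these comparisons).

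**Figure D3:**
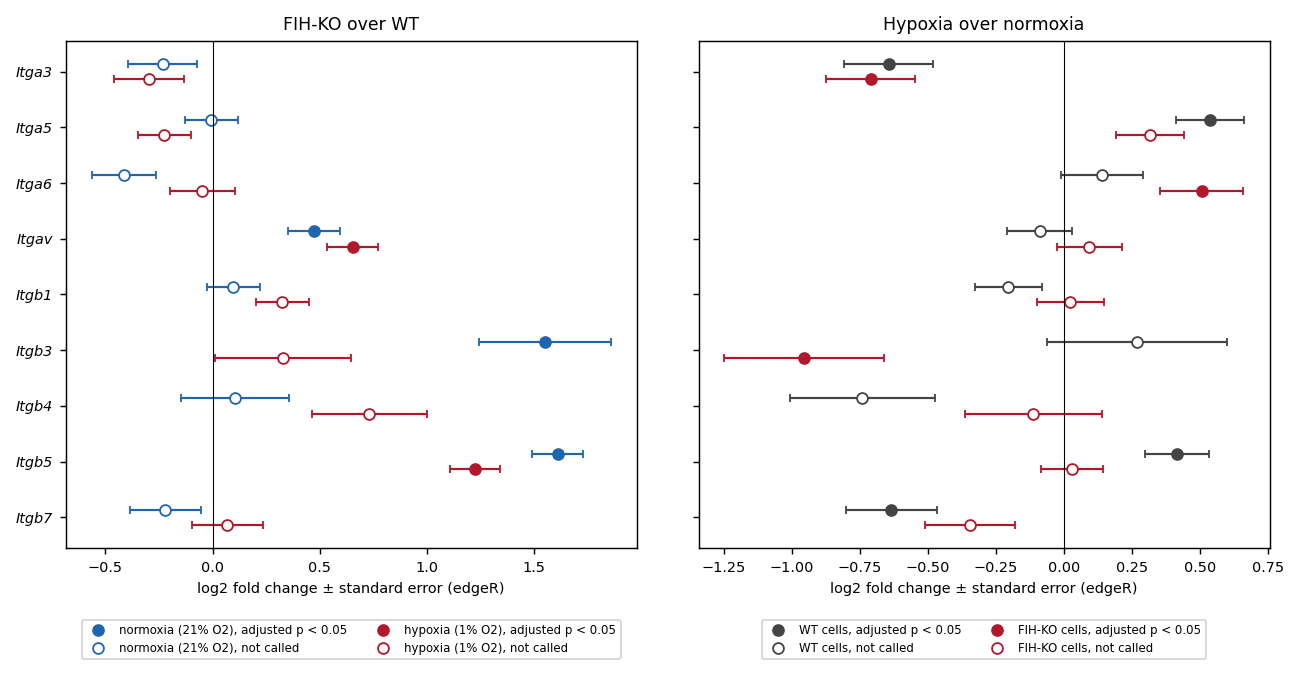
Log2 fold change of FIH-KO over WT (left, in normoxia and in hypoxia) and of hypoxia over normoxia (right, in WT and in FIH-KO cells) for 9 integrin subunit genes, with bars of 1 standard error from the edgeR model; filled points passed an adjusted p of 0.05. Itga2 is left out because 3 of its groups hold 3 reads or fewer per library. Itgb5 and Itgav are to the right of 0 for genotype in both conditions, and Itga3 is to the left of 0 for hypoxia in both genotypes.

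Whether loss of FIH acted differently in hypoxia than in normoxia was tested directly as the difference of the 2 genotype effects. No member was called (0 of 10), and 0% of all tested genes were. At an unadjusted p under 0.05 there were 925 of the 13933 tested genes and 2 of the 10 members by edgeR, and 1 member by DESeq2. With so few members these counts are no result about the list. At an adjusted p under 0.05, DESeq2 called 37 genes and 0 members. The 2 members were Itgb3 (difference -1.22 on the log2 scale, standard error 0.44, adjusted p = 0.61, edgeR) and Itgb5 (-0.39, standard error 0.16, adjusted p = 0.69, edgeR), in both of which the genotype effect was the smaller in hypoxia. For Itgav the difference was 0.18 (95% interval -0.19 to 0.55). With 2 libraries per group these intervals are wide, and a p that misses the threshold does not show equal effects.

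The genes whose pattern over the 8 libraries was most like that of Itgb5, by Pearson's r of log2 CPM, were Ctsd (r = 0.997), Ifngr1 (0.993) and Nr2c1 (0.988). For Itgav they were Atg3 (0.986), Echs1 (0.985) and BC005624 (0.981). The 8 points share 4 groups, so these values describe likeness of the group pattern alone.

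Nearby genes were read next to the members to see whether a whole stretch of chromosome moved. The 6 nearest tested genes of Itgb5 had a median log2 fold change of FIH-KO over WT of 0.39 in normoxia and 0.08 in hypoxia, and 2 of them rose in both conditions, Heg1 (0.86 and 0.43) and Mylk (3.18 and 2.64). Over all 425 tested genes of its chromosome 16 the medians were 0.23 and 0.18. Around Itgav, 1 of the 6 neighbours rose in both conditions, Tfpi (0.66 and 0.66). Around Itgb3, 0 rose and 1 fell in hypoxia, Tlk2 (-0.44). The medians of the 6 neighbours were -0.08 and -0.12 around Itgav and 0.09 and -0.16 around Itgb3. Over all 1113 tested genes of chromosome 2, which holds Itgav, they were 0.23 and 0.21, beside the 0.47 and 0.65 of Itgav itself, and over the 1098 of chromosome 11, which holds Itgb3, -0.05 and -0.08. Around Itgav, 5 of 6 neighbours in WT cells and 4 of 6 in FIH-KO cells were higher in hypoxia (medians 0.75 and 0.69), with Fam171b at 2.44 and 1.89, while Itgav itself was not called for oxygen.

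Other subunits of the family were looked for too. Of 17 further integrin genes, 7 were tested, and the highest count of any subunit that was not tested was 8 reads. In FIH-KO cells 4 of the 7 rose in normoxia and 0 fell, against 15.2% and 13% of all tested genes. In hypoxia 4 rose and 1, Itgax, fell, against 14.1% and 13.9%. Itga7, the laminin-binding α7 chain, went from 31.2 and 28.3 CPM in WT to 89.1 and 95.3 in FIH-KO cells in normoxia, with no overlap (1.63 ± 0.13 on the log2 scale, adjusted p = 8.1e-06 by edgeR), and gave 1.37 in hypoxia (adjusted p = 3.0e-05, edgeR). Itgb8, another partner of αv, was at 16 to 21 reads in WT and 41 to 73 in FIH-KO libraries (log2 fold change 1.53 in normoxia and 1.25 in hypoxia, both called). Itga2b, which encodes the αIIb chain that joins β3 on platelets, gave 1.71 and 0.94 on 22 to 84 reads per library, and Itgb2, the leukocyte β2 chain, 0.83 and 0.98. Summed leukocyte markers ran from 3.08 to 4.09 CPM in WT normoxia, 8.26 to 9.02 in WT hypoxia, 10.1 to 10.4 in FIH-KO normoxia and 8.79 to 11.1 in FIH-KO hypoxia, with 3 of the 7 markers under 4 reads in every library, and their part in the Itgb2 and Itgax values was not tested. Itgax, the αX chain, was higher in hypoxia in WT (log2 fold change 1.13) and FIH-KO cells (0.72).

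Ligands of integrins, laminins and collagens aside, changed in both directions with genotype. Of 25 tested, 10 rose and 3 fell in FIH-KO cells in normoxia and 10 rose and 5 fell in hypoxia, against the 15.2% and 13%, and 14.1% and 13.9%, of all tested genes. Thbs1, which encodes thrombospondin 1, a matrix protein that activates latent TGF-β, was at 158 and 180 reads in WT normoxia, 135 and 73 in WT hypoxia, 1483 and 2566 in FIH-KO normoxia and 688 and 1073 in FIH-KO hypoxia. All FIH-KO libraries exceeded all WT libraries (3.48 on the log2 scale at 21% O2, adjusted p = 8.7e-06, and 3.15 at 1% O2, adjusted p = 2.4e-05, by edgeR). Thbs2, its relative, gave 1.64 and 1.89. Fbln5, an elastic fibre protein with an integrin-binding motif, gave 4.49 and 2.03. Its FIH-KO libraries differed widely (115 and 400 reads in normoxia, 72 and 242 in hypoxia). Its WT libraries held few reads (7 and 14 in normoxia, 40 and 40 in hypoxia). Fn1, which encodes fibronectin and is also one of the mesenchymal markers above, gave 1.68 and 1.10. Edil3, a secreted ligand of αvβ3 and αvβ5, fell (-2.71 and -3.45, from 91 to 199 reads in WT to 16 to 20 in FIH-KO libraries), as did Tnc, which encodes tenascin C (-1.64 and -2.68). Tnc rested on few reads, with 27 and 38 in WT normoxia and 13 and 9 in FIH-KO normoxia. In hypoxia it had 33 and 36 in FIH-KO libraries, and the WT libraries lay apart (336 and 138). Named after their values were seen, Tgfb2 also fell in both conditions (-2.00 and -1.55) and F11r and Jam2 in hypoxia. Named likewise, Tgfb3 (0.77 and 0.95) and Ltbp3 (0.97 and 0.56) rose in both conditions, and Tgfb1 rose in normoxia (0.99).

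With oxygen, 9 of 25 ligands were higher and 6 lower in hypoxia in WT cells, against 16.9% and 15.5% of all tested genes, and 5 were higher (Fn1, Tnc, Spp1, Adam17 and Jam2) and 7 lower in FIH-KO cells, against 8.84% and 8%. Tnc was higher in hypoxia in both genotypes (log2 fold change 2.82 in WT and 1.78 in FIH-KO cells), on the few reads given above. Vcam1, an adhesion molecule recognised by α4 integrins, was lower (-1.35 and -1.28), and so was Ltbp1, which tethers latent TGF-β to the matrix (-0.89 and -1.03).

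Among the genes for proteins that link integrin tails to actin or set their activation, more were lower than higher in hypoxia. Of 35 tested, 16 were lower and 2 higher (Lims1 and Zyx) in WT cells, against 15.5% and 16.9% of all tested genes, and 11 lower and 1 higher (Lims2) in FIH-KO cells, against 8% and 8.84%. The median log2 fold change of the list was -0.31 in WT and -0.29 in FIH-KO cells. Ptk2b, a focal adhesion kinase relative, was at -1.37 and -1.21, the adaptor Nedd9 at -0.89 and -1.23, and Parva, which encodes α-parvin of the complex with integrin-linked kinase, at -1.17 and -0.92. In FIH-KO cells 7 adaptors rose and 4 fell in normoxia (Rap1a, Pxn, Parvb and Fermt3), and 9 rose and 4 fell in hypoxia (Rap1a, Pxn, Git1 and Fermt3), against 15.2% and 13%, and 14.1% and 13.9%, of all tested genes. Fermt3 (-2.81 and -3.04) averaged under 50 counts over the 8 libraries, so its fall rests on few reads. Lims1 (PINCH1; 0.78 and 0.65), Rsu1 (0.57 and 1.00) and Parva (0.53 and 0.78), which act in the same complex, rose, as did Apbb1ip (0.65 and 0.66), the RIAM adaptor that brings talin to integrins. Rap1a, the small GTPase upstream of RIAM, fell (-0.70 and -0.72).

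Among the membrane proteins that sit beside integrins, 7 of 16 rose and 1 fell (Tspan8) in FIH-KO cells in normoxia, and 9 rose and 2 fell (Tspan8 and Slc3a2) in hypoxia. Tspan8 (log2 fold change -7.07 and -6.68) averaged under 50 counts over the 8 libraries, so its fall rests on few reads. The shares over all tested genes were 15.2% and 13%, and 14.1% and 13.9%. They included Emp2 (log2 fold change 1.56 and 1.35), the syndecans Sdc1 (0.56 and 0.76) and Sdc4 (0.52 and 0.82) and the tetraspanins Cd63 (0.48 and 0.58) and Cd81 (0.48 and 0.64). With oxygen, 4 were higher in hypoxia in WT cells (Slc3a2, Bsg, Emp2 and Cd82) and 5 lower (Cd9, Cd81, Cd151, Tspan4 and Lrrc32), and 2 were higher (Slc3a2 and Bsg) and 1 lower (Cd9) in FIH-KO cells, against 16.9% and 15.5%, and 8.84% and 8%, of all tested genes. Slc3a2, the CD98 heavy chain that binds β1 tails, was higher (log2 fold change 1.48 in WT cells, 0.73 in FIH-KO cells), as was Bsg, which encodes basigin (1.10 and 1.25), while the tetraspanin Cd9 was lower (-0.47 and -0.38).

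Of the 20 tested genes of integrin endocytosis and recycling, 4 rose (Arrdc3, Rab4a, Rab5a and Rabgap1) and 3 fell (Hax1, Snx27 and Gga3) in FIH-KO cells in normoxia, and 4 rose (Arrdc3, Dab2, Rab11b and Rabgap1) and 2 fell (Hax1 and Snx27) in hypoxia. These counts were near the 15.2% and 13%, and 14.1% and 13.9%, of all tested genes and are no result about the list. Arrdc3, an arrestin-domain protein linked to β4 turnover, rose (0.96 and 0.78) and Snx27, a recycling sorting nexin, fell (-0.64 and -0.61). In hypoxia 5 of them were higher (Arrdc3, Hax1, Rab5a, Rab11fip1 and Numb) and 5 lower (Dab2, Rab4a, Rab11b, Snx17 and Eps8) in WT cells, and 4 were higher (Arrdc3, Hax1, Rab5a and Rab11fip1) and 2 lower (Dab2 and Rab4a) in FIH-KO cells, against 16.9% and 15.5%, and 8.84% and 8%, of all tested genes. The endocytic adaptor Dab2 was lower (-1.18 and -0.71), and Arrdc3 was higher (1.21 and 1.03). Of 6 hemidesmosome genes 3 were tested, and 1 of them rose in FIH-KO cells in normoxia (Plec, which encodes plectin) and 1 in hypoxia (Cd151). Of all tested genes 15.2% and 14.1% rose, so with 3 genes these counts are no result about the list. Cd151 is also counted among the membrane proteins above. Dst, which encodes the cytolinker dystonin, was higher in hypoxia (0.61 in WT cells, 0.41 in FIH-KO cells), and Cd151 was lower in WT cells. The plot of called shares sets these lists beside all tested genes.

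**Figure D4:**
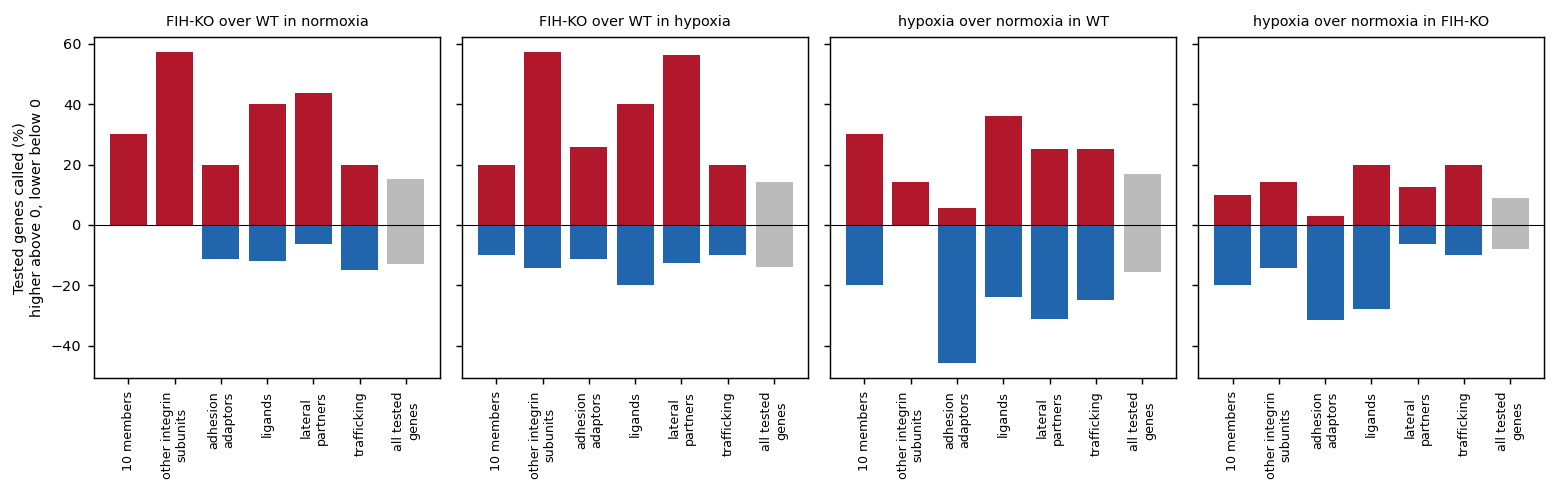
Percentage of the tested genes of each list called higher (above 0, red) or lower (below 0, blue) at an adjusted p of 0.05 by edgeR, with 1 panel per comparison; the grey bars are all 13933 tested genes. The adhesion adaptors reach furthest below 0 in both hypoxia panels, where 16 and 11 of 35 were lower, and 4 of 7 other integrin subunits were higher in both genotype panels.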

How the data were processed

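RNA-Seq of 8 LLC libraries (4 groups of 2) was analysed. The authors sequenced stranded mRNA libraries, used STAR to align reads to GRCm39 and HTSeq to count them on genes. The authors deposited raw counts for 53700 genes, not normalized, between 14519731 and 18177016 per library. The annotation release and the strand setting are not given in the sources used here. Reads of overlapping genes on opposite strands may therefore not be separated.

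Counts were filtered with filterByExpr of edgeR 4.0.16 in R 4.3.3 (13933 genes), scaled by TMM and tested with a quasi-likelihood model of the 4 group means, with Benjamini-Hochberg adjustment over all tested genes and a threshold of 0.05. Standard errors are the absolute log2 fold change over the root of F. Groups and replicate numbers came from the labels. Correlations between groups of the difference between replicates 1 and 2 ran from -0.010 to 0.19. The main model held no pairing by replicate number, but a weak one is not excluded, and a replicate block was kept as an alternative.

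Levels were TMM-scaled CPM, divided by merged exon length of GENCODE vM39 (97.97% of identifiers found) when genes were compared. A ratio on 3 reads or fewer has an exact 95% counting interval, and a floor of 3 counts stands for 0. Named genes of the lists were those called in both genotypes or both oxygen conditions in 1 direction with a mean of at least 50 counts, up to 5 a list for genotype and 3 for oxygen, ranked by the smaller change. The 10 members and all lists were chosen with earlier results of these data known. Genes named outside this rule, among them Fn1, Mylk, Heg1 and Fam171b, were named after their values were seen. Alternatives were DESeq2 1.42.0, RLE or upper-quartile factors, no filter beyond 1 read, at least 10 counts in every library, the 4 libraries of a comparison alone, a replicate block and each library left out in turn. Tables used pandas 2.3.3 and plots matplotlib 3.10.9 in Python 3.11.15.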

Additional observations from a re-analysis of the deposited data

Results flagged for a closer look

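The estimated changes of Itgb3 with oxygen had opposite signs in the 2 genotypes, and only that in FIH-KO cells was called. In WT cells its log2 fold change of hypoxia over normoxia was 0.27 (not called), with both hypoxia libraries (39 and 32 reads; 2.19 and 2.18 CPM) above both normoxia libraries (1.48 and 2.13 CPM). In FIH-KO cells it was -0.95 (adjusted p = 0.044, edgeR), with both hypoxia libraries (2.31 and 3.19 CPM) below both normoxia libraries (4.82 and 5.82 CPM). The test of the difference itself gave -1.22 (standard error 0.44, adjusted p = 0.61, edgeR). The WT value was -0.0085 without WT normoxia replicate 1, and the FIH-KO call was lost without FIH-KO hypoxia replicate 1 (-0.71, adjusted p = 0.21), FIH-KO normoxia replicate 1 (-1.06, 0.096) or FIH-KO normoxia replicate 2 (-0.79, 0.21).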

How the results depend on the processing

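Of 318 recomputed member values with no library left out, 303 kept direction and side of the threshold, 11 newly passed it, 3 no longer did and 1 changed sign (Itga5 in FIH-KO against WT cells in normoxia, 0.0135 with no filter). Itgb5 and Itgav kept their calls between FIH-KO and WT cells under every alternative that left out no library. In FIH-KO against WT cells in normoxia the count of members lower was 1 in place of 0 with DESeq2, upper-quartile factors, no filter or the 4 libraries alone (Itga6). In hypoxia it was 0 with at least 10 counts in every library, a filter that Itga2 did not pass, and the count of members higher was 3 in place of 2 with DESeq2 or no filter (Itgb1) and with at least 10 counts (Itgb4). For hypoxia in FIH-KO cells, the 4 libraries alone gave 0 members higher and 1 lower, and DESeq2 1 lower, since Itgb3 was no longer called (adjusted p = 0.097). Itgb4 in WT hypoxia passed under 4 alternatives.

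With 1 library left out, where the lone library of a group is assumed to vary like the others, 184 of 224 values kept direction and side, 21 no longer passed, 5 newly passed and 14 changed sign. The counts of members ran from 1 to 3 (higher) in FIH-KO against WT cells in normoxia, 1 to 2 (lower) in hypoxia, 1 to 3 (higher) and 1 to 2 (lower) for hypoxia in WT cells, and 0 to 2 (higher) and 0 to 2 (lower) for hypoxia in FIH-KO cells. Sign changes fell on members not called, with these lowest and highest values: for FIH-KO against WT cells, Itgb1 in normoxia -0.0469 to 0.186, and Itga6 (-0.20 to 0.133) and Itgb7 (-0.20 to 0.326) in hypoxia; for hypoxia in WT cells, Itga6 -0.0410 to 0.260 and Itgb3 -0.0085 to 0.523; for hypoxia in FIH-KO cells, Itgav -0.0080 to 0.21 and Itgb1 -0.10 to 0.17; and Itga3 in the difference of the genotype effects, -0.285 to 0.19.

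The replicate block left every count of members as it was (3 higher and 0 lower in normoxia, 2 and 1 in hypoxia; 3 and 2 for hypoxia in WT, 1 and 2 in FIH-KO cells). Over all genes, the difference of the genotype effects was called in 0 genes, in 1 higher and 4 lower with the block, in 12 and 25 with DESeq2, in 45 and 98 with no filter, and in 19 and 20 without FIH-KO hypoxia replicate 1. For hypoxia in FIH-KO cells, 1231 genes were higher and 1114 lower, and 808 and 481 with the 4 libraries alone. Reads limit Itga2, Itgb3 and Itgb4, which held at most 104 in any library. The cause of these shifts was not tested.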
